A study of Homo sapiens with 9 samples.

Results

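Genes of the lysosome and of its proton pump, the V-ATPase, were examined in RNA-seq libraries labelled as A549, a cell line from a human lung adenocarcinoma. The set named 37 genes, chosen by name and function: 2 transcription factors, 5 lysosomal membrane proteins, 12 hydrolases, 3 soluble lysosomal proteins that are not enzymes, 1 autophagy receptor, and 14 genes of the V-ATPase (5 subunits of the V0 sector, 8 of the V1 sector and 1 accessory subunit). Of these, 36 were measured, of 19257 genes in the count table. All 36 passed the filter on low counts, which kept 12574 genes, and HEXA was not analysed here.

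There were 9 libraries in 3 groups of 3. OGT_KO cells had received a Lenti-CRISPR-V2 plasmid for knockout of OGT, the enzyme that places O-linked N-acetylglucosamine on nuclear and cytosolic proteins. TR11B_KO cells had received a Lenti-CRISPR-V2 plasmid for knockout of TR11B, taken here as TNFRSF11B, the gene of osteoprotegerin, whose protein entry has this name. NC cells had received the empty plasmid, and the labels give their genotype as WT. All cells were grown in the same medium with serum. The labels call the libraries biological replicates. They do not say whether the libraries came from separate cultures, pools of cells or clones, so that p-values measure only the spread between these libraries, which may be technical. The 3 libraries of a knockout carry 1 name and a replicate number, so that a guide or clone and the knockout itself cannot be told apart. The comparison asks how the genes that build lysosomes and the proton pump differ between each knockout and NC, and between the knockouts.

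Lysosomes are acidic organelles in which hydrolases break down proteins, lipids, glycans and material delivered by endocytosis and autophagy. The V-ATPase acidifies them: its cytosolic V1 sector hydrolyses ATP, and its membrane-bound V0 sector carries protons into the lumen. The factors TFEB and TFE3 can switch on many lysosomal genes through promoter elements around the letters TCACGTG, and the lysosomal surface is also where the kinase complex mTORC1 is recruited when amino acids are present.

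Library totals lay between 38327508 and 42245970 counts, and levels are given as TMM-normalized CPM (counts per 1e+06 of the scaled library total). TR11B_KO replicate 2 stood apart, with a TMM factor of 0.784 where the others lay between 0.951 and 1.159. The mRNA of OGT had levels of 21.1, 28.3 and 22.85 CPM in OGT_KO cells, 17.04, 11.5 and 12.4 CPM in TR11B_KO cells, and 29.6, 26.9 and 24.7 CPM in NC cells. The OGT_KO libraries overlapped NC (log2 fold change -0.17, adjusted p = 0.607 in edgeR's test), whereas OGT passed as lower in TR11B_KO than in NC (-0.99, adjusted p = 0.00393). TNFRSF11B was at or below 0.353 CPM in every library. These mRNA levels do not show whether the edits are present, and group names below stand for the libraries so labelled. The epithelial keratins KRT8 and KRT18 were abundant, at 2720 CPM or more in each library, and both fell in OGT_KO against NC (by 0.99 and 0.93 on the log2 scale). Among genes typical of A549, AKR1B10, AKR1C1, ALDH1A1 and ALDH3A1 were at or below 0.158 CPM in all 9 libraries. EPCAM, CDH1 and KRT19 were at or below 0.484 CPM. These 7 genes were thus at or near 0, and the cells are called by their label only. NAPSA, a marker of alveolar type II cells, and the markers of other cell types COL1A1, PDGFRB, CD14 and PECAM1 stayed below 1 CPM in all libraries.

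Individual lysosomal genes differed from NC in both directions in each knockout group. In OGT_KO, the membrane proteins NPC1 and LAMP2 and the V-ATPase subunits ATP6V0A1, ATP6V1A and ATP6V1C1 were higher than in NC, and GLB1 and ATP6V1B2 were lower. In TR11B_KO, the hydrolases CTSZ, GAA, NAGLU and CTSL and the secreted and lysosomal protein GRN were higher than in NC, and ATP6V1B2, LAMP1, CTSB, NPC1 and GLB1 were lower. Between the knockouts, NPC1, ATP6V1A, ATP6V0A1, SQSTM1, LAMP1 and LAMP2 were higher in OGT_KO than in TR11B_KO, and CTSZ, NAGLU and CTSL were lower. These calls are from edgeR's quasi-likelihood test at a Benjamini-Hochberg adjusted p under 0.05 over all tested genes. The comparisons with NC share the NC libraries, and those calls are therefore not independent of each other. In RNA from whole cultures, fewer expressing cells and less RNA per cell cannot be told apart.

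In OGT_KO against NC, 7 of 36 genes passed (19.4%), 5 higher and 2 lower. Of all tested genes 18.3% passed there, 8.26% higher and 10.1% lower. In TR11B_KO against NC, 10 of 36 passed (27.8%), 5 higher and 5 lower, and of all tested genes 27.6%, with 13.2% higher and 14.3% lower. In OGT_KO against TR11B_KO, 9 of 36 passed (25%), 6 higher and 3 lower, and of all tested genes 33.2%, with 16.7% higher and 16.5% lower. The share of lysosomal genes called was close to that of all genes in the comparisons with NC, and below it between the knockouts. The groups did not overlap for 22 genes in OGT_KO against NC (17 higher and 5 lower), where 49.8% of all tested genes did not overlap. They did not overlap for 15 genes in TR11B_KO against NC (7 higher and 8 lower; 40.9% of all tested genes) and for 17 between the knockouts (13 higher and 4 lower; 44.9%). The median log2 fold change of the 36 genes was 0.16 in OGT_KO against NC, -0.064 in TR11B_KO against NC and 0.21 in OGT_KO against TR11B_KO. Over all tested genes these medians were 0.033, -0.0097 and 0.056. With RLE size factors the set's median in TR11B_KO against NC was 0.0032, on the other side of 0.

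The counts changed with the libraries in the fit, and the cause was not tested. Without TR11B_KO replicate 2, 19 of 36 genes passed in OGT_KO against NC (15 higher, 4 lower), with 35.4% of all tested genes. Fitted with only the OGT_KO and NC libraries, 20 passed (15 higher, 5 lower), with 41.8% of all tested genes. All 7 genes were among these 19 and these 20. Without TR11B_KO replicate 1, 14 passed, with 26.1% of all tested genes. Without any single OGT_KO or NC library 1 to 3 passed, with 8.34% to 11.2% of all tested genes. For TR11B_KO against NC, 17 passed without TR11B_KO replicate 2 (7 higher, 10 lower; 34.2% of all tested genes), 6 with only these groups (18.7%), 5 without NC replicate 1 (14.5%) and 4 without NC replicate 2 (14.1%). Between the knockouts, 15 passed without TR11B_KO replicate 2 (41.4% of all tested genes), 17 without TR11B_KO replicate 1 (38.3%), and 8 with only these groups (25.6%). With scaling by library totals alone, the median log2 fold change of all tested genes was 0.147 in OGT_KO against NC. This median was -0.152 in TR11B_KO against NC and 0.314 between the knockouts. With this scaling the calls split into 10 higher and 0 lower in OGT_KO against NC, 4 and 9 in TR11B_KO against NC, and 17 and 2 between the knockouts. Over all tested genes the same scaling gave 1369 higher and 890 lower, 1180 and 2030, and 3084 and 1268.

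**Figure D1:**
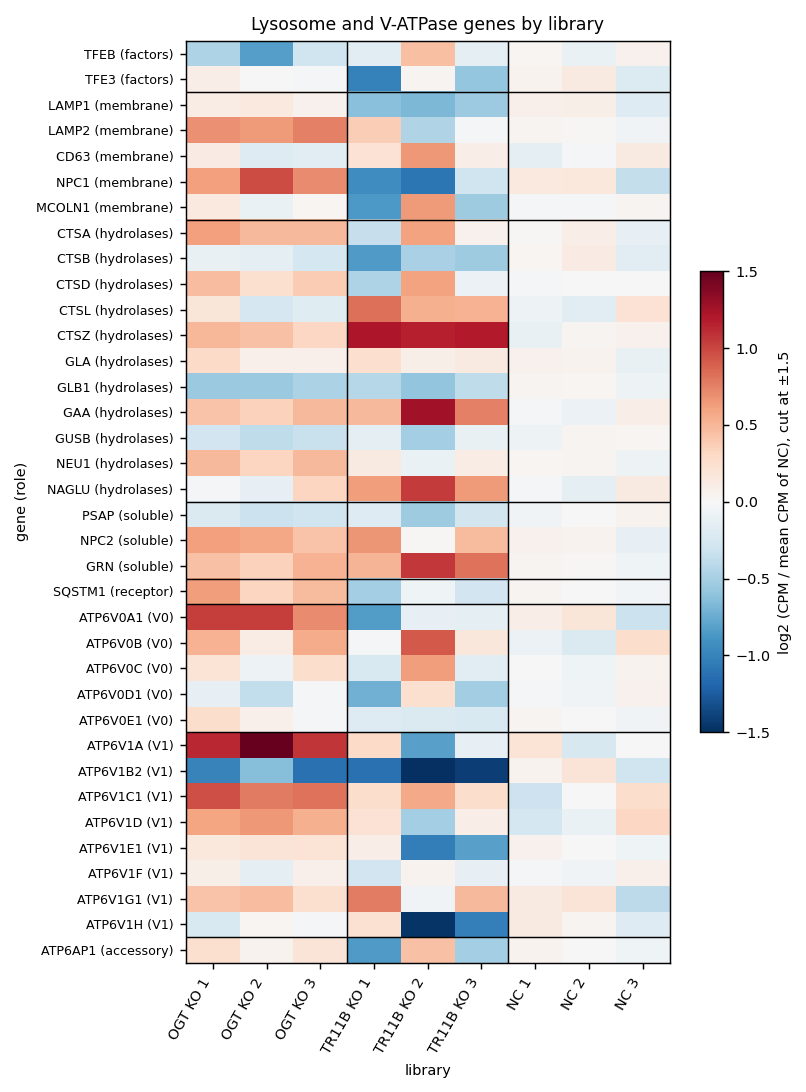
Level of each of the 36 genes (rows, with the role in brackets) in each of the 9 libraries (columns), as the log2 ratio of its CPM to the mean CPM of the 3 NC libraries. Red is higher and blue lower than the NC mean, and colours stop at 1.5 in either direction. CTSZ is red in all 3 TR11B_KO libraries and ATP6V1B2 is blue in all 6 knockout libraries, while TR11B_KO replicate 2 differs from the other 2 TR11B_KO libraries for many genes.

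The transcription factors did not pass in any of the 3 comparisons. TFEB, a master regulator of lysosome formation, had 10.5, 8.17 and 11.8 CPM in OGT_KO, 12.95, 19.8 and 13.2 CPM in TR11B_KO, and 14.7, 13.5 and 15.15 CPM in NC. All 3 OGT_KO libraries lay below all libraries of the other groups, whereas TR11B_KO and NC overlapped. The log2 fold change of TFEB was -0.51 ± 0.23 (SE, adjusted p = 0.133) in OGT_KO against NC and -0.59 ± 0.23 (adjusted p = 0.0586) in OGT_KO against TR11B_KO. For TR11B_KO against NC it was 0.083 ± 0.23 (adjusted p = 0.814). TFEB passed as lower in OGT_KO than in NC without TR11B_KO replicate 2 (-0.51, adjusted p = 0.0237), and when only OGT_KO and NC were fitted (-0.50, adjusted p = 0.0101). TFE3, a close relative of TFEB on chromosome X, had 241, 227 and 223 CPM in OGT_KO, 112, 233 and 150.2 CPM in TR11B_KO, and 233, 248 and 195 CPM in NC. TR11B_KO replicates 1 and 3 were the lowest libraries and replicate 2 lay among those of NC. The log2 fold change of TFE3 was 0.0315 ± 0.23 in OGT_KO against NC (adjusted p = 0.943), -0.45 ± 0.23 in TR11B_KO against NC (adjusted p = 0.152) and 0.48 ± 0.23 in OGT_KO against TR11B_KO (adjusted p = 0.114). TFE3 passed as lower in TR11B_KO than in NC under 7 of the 23 alternatives, 1 of them without TR11B_KO replicate 2 (-0.75, adjusted p = 0.00023). In OGT_KO against TR11B_KO, TFE3 passed as higher under 7 alternatives and TFEB as lower under 6.

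The promoters of the set were searched for the letters these factors bind. Such elements are known from many lysosomal genes, so their share in a set of such genes is a description and not a test. The window was the 250 bases before and the 50 bases after each start site in RefSeq on GRCh38.p14, and 27 of the 37 genes had a window. CACGTG, and TCACGTG, which contains it, were searched on both strands. TCACGTG was found for 9 of 27 genes (33.3%), against 4.49% of the 27305 genes with windows. CACGTG was found for 10 of 27 (37.0%), against 8.77%. Some genes have several windows, and counted by window TCACGTG was in 21.95% of 41 windows of the set and in 3.71% of all 35116. The 9 genes were LAMP1, MCOLN1, CTSA, CTSD, GAA, NEU1, ATP6V0B, ATP6V0D1 and ATP6V1G1. LAMP1 held 6 copies. MCOLN1, CTSA, GAA and ATP6V0B held 2 each, and the others 1.

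The stretches of 80 bases below hold the copies upstream of the start for the 2 of these genes called in TR11B_KO, LAMP1 and GAA, then for a lysosomal channel and for a V0 and a V1 subunit. Capitals mark CACGTG with its flanking T before or A after, so that each capital run reads TCACGTG on 1 or both strands. They are LAMP1 at chr13:113297035-113297114, GAA at chr17:80101491-80101570, MCOLN1 at chr19:7522543-7522622, ATP6V0B at chr1:43974867-43974946 and ATP6V1G1 at chr9:114587666-114587745, all on the plus strand.
LAMP1: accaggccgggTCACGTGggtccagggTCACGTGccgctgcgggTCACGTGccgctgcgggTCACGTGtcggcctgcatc
GAA: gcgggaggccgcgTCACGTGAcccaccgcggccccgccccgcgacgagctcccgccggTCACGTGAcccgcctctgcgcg
MCOLN1: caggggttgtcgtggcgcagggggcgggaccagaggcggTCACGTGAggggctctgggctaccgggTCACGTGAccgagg
ATP6V0B: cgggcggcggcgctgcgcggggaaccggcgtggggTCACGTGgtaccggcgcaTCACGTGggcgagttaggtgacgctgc
ATP6V1G1: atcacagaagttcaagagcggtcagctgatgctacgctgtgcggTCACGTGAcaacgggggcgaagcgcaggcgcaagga
The LAMP1 stretch holds 4 of that gene's copies. The GAA and MCOLN1 stretches hold 2 copies each that read the same on both strands.

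In OGT_KO against NC, 8 of the 9 genes with TCACGTG had positive log2 fold changes, as did 13 of the 18 genes with a window and no TCACGTG, and 52.1% of all tested genes. In TR11B_KO against NC, 6 of the 9 and 8 of the 18 were positive (49.4% of all tested genes), and between the knockouts 6 and 10 (52.8%). Calls are to be read against 18.3%, 27.6% and 33.2% of all tested genes in the 3 comparisons. Of the 9, 0 passed in OGT_KO against NC in edgeR's test, 2 passed in TR11B_KO against NC (GAA higher and LAMP1 lower), and 1 passed in OGT_KO against TR11B_KO (LAMP1 higher). Of the 18 genes with a window and no TCACGTG, 3, 5 and 5 passed in the same comparisons. A further 9 tested genes had no window and were not searched, and of these 4, 3 and 3 passed. The median log2 fold changes of the 9 genes with TCACGTG were 0.38, 0.083 and 0.13, and those of the 18 were 0.16, -0.071 and 0.065. A match is a stretch of letters and not a measured binding site.

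Of the 5 lysosomal membrane proteins, 2 passed as higher in OGT_KO against NC, 2 as lower in TR11B_KO against NC, and 3 as higher in OGT_KO against TR11B_KO. Of all tested genes 8.26% passed as higher, 14.3% as lower and 16.7% as higher in these comparisons. NPC1, which exports cholesterol from lysosomes, had 52.3, 67.6 and 56.0 CPM in OGT_KO, 17.9, 16.1 and 27.9 CPM in TR11B_KO, and 38.0, 38.1 and 26.65 CPM in NC. The OGT_KO libraries were the 3 highest, and TR11B_KO overlapped NC through NC replicate 3. NPC1 rose in OGT_KO against NC by 0.78 ± 0.23 (log2 fold change ± SE, adjusted p = 0.031), and in TR11B_KO it fell by 0.73 ± 0.23 against NC (adjusted p = 0.0305). In OGT_KO against TR11B_KO its log2 fold change was 1.51 ± 0.23 (adjusted p = 0.000344). That last difference passed under all 23 alternatives. The call against NC in OGT_KO was lost without any single OGT_KO or NC library, with log2 fold changes from 0.62 to 0.86 and adjusted p from 0.0658 to 0.137. The call in TR11B_KO was lost without TR11B_KO replicate 1 (-0.57, adjusted p = 0.0678), NC replicate 1 (-0.65, adjusted p = 0.116) and NC replicate 2 (-0.65, adjusted p = 0.118), and also with the length or GC offset described further on and with only these groups. NPC1 lies on chromosome 18 (23506184 to 23586506 in GRCh38.p14, on 18q), where the median log2 fold change of the 131 tested genes of the arm was 0.42 in OGT_KO against NC and 0.038 in TR11B_KO against NC. Whether the arm's shift has a part in the NPC1 difference was not tested.

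LAMP1 and LAMP2 are the most abundant glycoproteins of the lysosomal membrane, and they differed between the knockouts. LAMP1 had 244, 252 and 237 CPM in OGT_KO, 147, 142 and 156 CPM in TR11B_KO, and 239.7, 242 and 198.5 CPM in NC. The TR11B_KO libraries were the 3 lowest, and OGT_KO overlapped NC. LAMP1 fell in TR11B_KO against NC by 0.61 ± 0.16 (log2, SE; adjusted p = 0.0104), and its difference between OGT_KO and TR11B_KO was 0.72 ± 0.16 (adjusted p = 0.00321). In OGT_KO against NC its log2 fold change was 0.11 ± 0.15 (adjusted p = 0.669). The fall in TR11B_KO was lost without NC replicate 1 (-0.57, adjusted p = 0.0597) and NC replicate 2 (-0.57, adjusted p = 0.0602), and with the GC offset. LAMP1 lies near the end of the long arm of chromosome 13 (113297239 to 113323672), and the 200 tested genes of 13q had a median log2 fold change of -0.67 in TR11B_KO against NC and 0.85 in OGT_KO against TR11B_KO. The LAMP1 differences were about the size of the arm's median, and the part of the arm in them was not tested.

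LAMP2 had 12.8, 12.4 and 13.5 CPM in OGT_KO, 10.3, 5.84 and 7.84 CPM in TR11B_KO, and 8.20, 8.05 and 7.665 CPM in NC. The OGT_KO libraries were the 3 highest, and TR11B_KO spread around NC. LAMP2 rose in OGT_KO against NC by 0.69 ± 0.23 (log2, SE; adjusted p = 0.0462) and was higher than in TR11B_KO by 0.69 ± 0.23 (adjusted p = 0.0302). Both calls sat near the threshold. The one against NC was lost without any single OGT_KO or NC library and without TR11B_KO replicate 3, with log2 fold changes from 0.66 to 0.72 and adjusted p from 0.0632 to 0.139, and also with library totals alone. The one against TR11B_KO was lost without any single OGT_KO library, TR11B_KO replicate 2 or 3, or NC replicate 1, with log2 fold changes from 0.48 to 0.72 and adjusted p up to 0.0898, and with the length offset or only these groups. The remaining membrane proteins, the tetraspanin CD63 and the calcium channel MCOLN1, passed in none of the 3 comparisons, with log2 fold changes from -0.42 to 0.35.

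**Figure D2:**
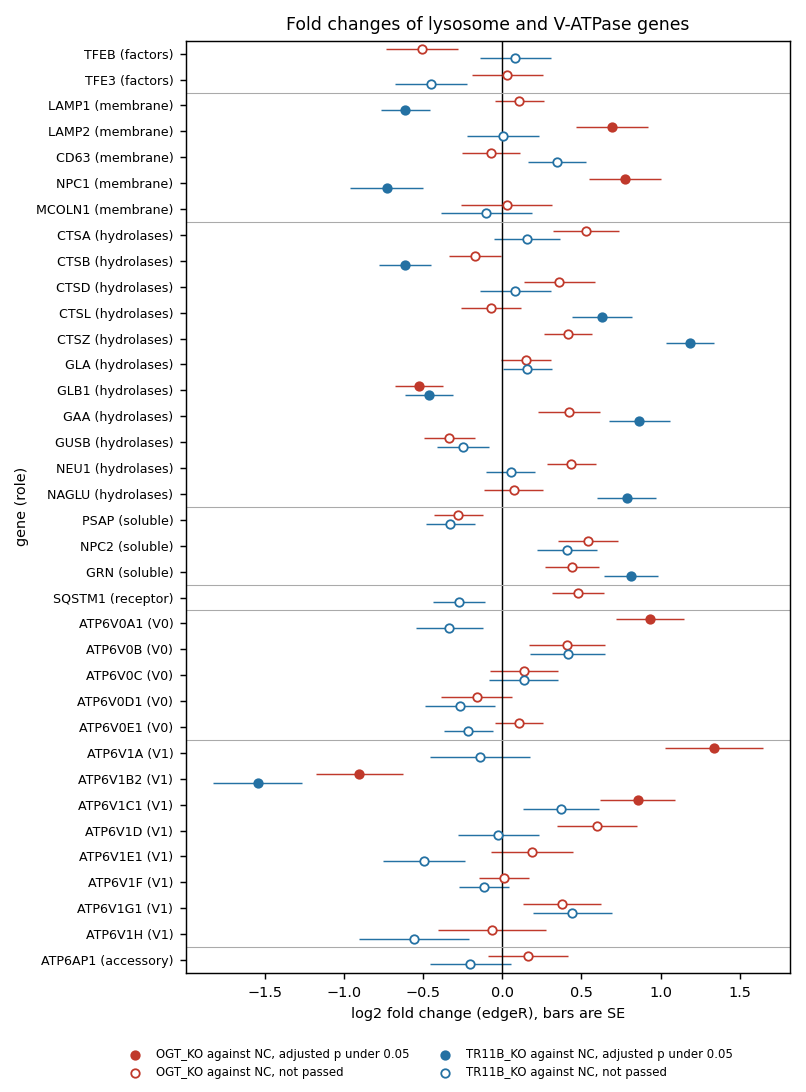
Log2 fold change of each of the 36 genes (rows, with the role in brackets) in OGT_KO against NC (red, upper mark of each row) and TR11B_KO against NC (blue, lower mark), with bars of 1 SE from edgeR over 3 libraries a group. Filled marks passed at an adjusted p under 0.05. NPC1 has filled marks on opposite sides of 0, and GLB1 and ATP6V1B2 have filled marks below 0 in both comparisons, which share the NC libraries.

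Calls among the hydrolases were counted in each comparison. Of 11 measured, 6 passed in TR11B_KO against NC (4 higher, 2 lower), 1 in OGT_KO against NC (lower) and 3 in OGT_KO against TR11B_KO (all lower). Of all tested genes 27.6%, 18.3% and 33.2% passed in these comparisons. CTSZ, a lysosomal carboxypeptidase of the cathepsin family, had 79.5, 76.3 and 70.1 CPM in OGT_KO, 131, 126.5 and 128.5 CPM in TR11B_KO, and 52.4, 58.2 and 58.8 CPM in NC. The 3 groups did not overlap. CTSZ rose in TR11B_KO against NC by 1.19 ± 0.15 (log2, SE; adjusted p = 0.000227), and was lower in OGT_KO than in TR11B_KO, with a log2 fold change of -0.77 ± 0.15 (adjusted p = 0.00178). In OGT_KO against NC it was 0.41 ± 0.15 (adjusted p = 0.07). The TR11B_KO call held under all 23 alternatives, with log2 fold changes from 0.87 to 1.25. The difference between the knockouts was -0.47 with the length offset and -0.40 with the length and GC offsets.

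GAA, the acid glucosidase that breaks down glycogen, had 61.4, 57.8 and 64.0 CPM in OGT_KO, 63.9, 109 and 76.8 CPM in TR11B_KO, and 45.2, 42.85 and 48.8 CPM in NC. All knockout libraries lay above NC, and TR11B_KO replicate 2 was the highest. GAA rose in TR11B_KO against NC by 0.87 ± 0.20 (log2, SE; adjusted p = 0.00558), and the call held under all 23 alternatives. NAGLU, which removes N-acetylglucosamine from heparan sulfate, had 42.4, 39.5 and 54.0 CPM in OGT_KO, 66.5, 89.5 and 66.9 CPM in TR11B_KO, and 42.5, 39.4 and 47.4 CPM in NC. TR11B_KO lay above both other groups, which overlapped. NAGLU rose in TR11B_KO against NC by 0.79 ± 0.19 (adjusted p = 0.00782), and its log2 fold change in OGT_KO against TR11B_KO was -0.71 ± 0.19 (adjusted p = 0.0104). The rise did not pass without NC replicate 2 (0.72, adjusted p = 0.0511). The difference between the knockouts did not pass with the GC offset, without OGT_KO replicate 1 (-0.66, adjusted p = 0.0524) or without OGT_KO replicate 2 (-0.62, adjusted p = 0.0655).

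The cysteine proteases CTSL and CTSB moved in opposite directions in TR11B_KO. CTSL had 35.0, 25.9 and 27.4 CPM in OGT_KO, 54.7, 44.9 and 44.3 CPM in TR11B_KO, and 29.4, 27.6 and 35.85 CPM in NC. TR11B_KO held the 3 highest libraries, and OGT_KO and NC overlapped. CTSL rose in TR11B_KO against NC by 0.63 ± 0.19 (log2, SE; adjusted p = 0.0241), and its log2 fold change in OGT_KO against TR11B_KO was -0.71 ± 0.19 (adjusted p = 0.0116). The rise was lost without NC replicate 1 (0.59, adjusted p = 0.103) and replicate 2 (0.55, adjusted p = 0.119), and with library totals alone, the length offset or only these groups. The difference between the knockouts did not pass with library totals alone or the length offset, nor without OGT_KO replicate 2 (-0.62, adjusted p = 0.0694) or replicate 3 (-0.65, adjusted p = 0.0545). CTSB had 154, 149.6 and 138 CPM in OGT_KO, 92.2, 118 and 115 CPM in TR11B_KO, and 169, 181 and 147.9 CPM in NC. Here TR11B_KO held the 3 lowest libraries. CTSB fell by 0.61 ± 0.17 in TR11B_KO against NC (log2, SE; adjusted p = 0.0143), and this was lost without NC replicate 1 (-0.60, adjusted p = 0.0608) and replicate 2 (-0.55, adjusted p = 0.0769), and with either offset or only these groups. CTSL has 6 annotated pseudogenes, and the sources used here do not say how reads shared with them were counted.

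GLB1, the acid galactosidase used as a marker of lysosomal content in senescent cells, had 58.2, 57.9 and 61.6 CPM in OGT_KO, 63.5, 56.4 and 65.7 CPM in TR11B_KO, and 87.9, 87.3 and 80.8 CPM in NC. All 6 knockout libraries lay below all 3 NC libraries. GLB1 fell in OGT_KO by 0.53 ± 0.15 (log2, SE; adjusted p = 0.0291) and in TR11B_KO by 0.46 ± 0.15 (adjusted p = 0.0367), both against the same NC libraries. The OGT_KO call was lost without any single OGT_KO or NC library, with log2 fold changes from -0.57 to -0.51 and adjusted p from 0.0583 to 0.119. The TR11B_KO call was lost without any single OGT_KO or NC library and without TR11B_KO replicate 3, with log2 fold changes from -0.51 to -0.45 and adjusted p from 0.0534 to 0.132. Neither fall of GLB1 passed with the length or GC offset, and the one in OGT_KO did not pass with library totals alone. The 5 other measured hydrolases passed in none of the 3 comparisons. Among them, the OGT_KO libraries of CTSA, CTSD, NEU1 and GLA all lay above those of NC, with log2 fold changes of 0.53, 0.36, 0.44 and 0.15, and those of GUSB lay below NC (-0.33).

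Of the soluble proteins that are not enzymes, only GRN passed, in TR11B_KO against NC. GRN, which encodes progranulin, had 403, 376 and 424 CPM in OGT_KO, 422, 617 and 519.6 CPM in TR11B_KO, and 305.5, 299.6 and 283 CPM in NC. Every knockout library lay above every NC library. GRN rose in TR11B_KO against NC by 0.81 ± 0.17 (log2, SE; adjusted p = 0.0038), under all 23 alternatives as well, and its log2 fold change in OGT_KO against NC was 0.44 ± 0.17 (adjusted p = 0.088). NPC2, the soluble partner of NPC1 in cholesterol export, had a log2 fold change of 0.54 ± 0.19 in OGT_KO against NC (adjusted p = 0.0594) and 0.41 ± 0.19 in TR11B_KO against NC (adjusted p = 0.119). PSAP, the precursor of the saposins that assist lipid hydrolases, had values of -0.28 ± 0.16 (adjusted p = 0.228) and -0.33 ± 0.16 (adjusted p = 0.129), with all 6 knockout libraries below NC.

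SQSTM1 encodes p62, the receptor that brings ubiquitin-tagged cargo to autophagosomes. It had 1251, 1015 and 1133 CPM in OGT_KO, 571, 775 and 668 CPM in TR11B_KO, and 836, 812 and 789 CPM in NC. OGT_KO lay above NC in all 3 libraries, and TR11B_KO below NC in all 3. SQSTM1 had a log2 fold change of 0.75 ± 0.17 (SE, adjusted p = 0.00375) in OGT_KO against TR11B_KO, and this held under all 23 alternatives. Neither difference from NC passed, at 0.48 ± 0.17 in OGT_KO (adjusted p = 0.0583) and -0.27 ± 0.17 in TR11B_KO (adjusted p = 0.235).

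V-ATPase genes were called in both directions. Of 14, 3 passed as higher and 1 as lower in OGT_KO against NC, 1 as lower in TR11B_KO against NC, and 2 as higher in OGT_KO against TR11B_KO. Of all tested genes 18.3%, 27.6% and 33.2% passed in these comparisons. Log2 fold changes were positive for 11 of 14 V-ATPase genes in OGT_KO against NC, for 4 of 14 in TR11B_KO against NC and for 12 of 14 in OGT_KO against TR11B_KO, where 52.1%, 49.4% and 52.8% of all tested genes were positive. Within the V0 sector, only ATP6V0A1 passed. It encodes an isoform of the large membrane subunit that couples the sectors, and it had 146.5, 145.5 and 116 CPM in OGT_KO, 39.85, 65.2 and 64.3 CPM in TR11B_KO, and 76.2, 80.6 and 56.8 CPM in NC. The OGT_KO libraries were the 3 highest. ATP6V0A1 rose in OGT_KO against NC by 0.93 ± 0.21 (log2, SE; adjusted p = 0.00866) and exceeded TR11B_KO by 1.27 ± 0.22 (adjusted p = 0.000662). Against NC, TR11B_KO had a log2 fold change of -0.33 ± 0.21 (adjusted p = 0.261). The rise was lost without NC replicate 3 (0.79, adjusted p = 0.0507) and under no other of the 23 alternatives, and the difference between the knockouts was lost under none. ATP6V0A1 (chromosome 17, 42458878 to 42522579) and NAGLU (42536241 to 42544449) are neighbours on the same arm, and between the knockouts ATP6V0A1 was higher and NAGLU lower in OGT_KO. The other V0 genes, the proteolipid subunits ATP6V0B and ATP6V0C and the subunits ATP6V0D1 and ATP6V0E1, had log2 fold changes from -0.27 to 0.41 against NC in both knockouts, and none passed.

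Within the V1 sector, the A and B subunits, which together form the ATP-hydrolysing head, moved in opposite directions in OGT_KO. ATP6V1A had 3.73, 5.63 and 3.57 CPM in OGT_KO, 2.07, 0.967 and 1.56 CPM in TR11B_KO, and 1.96, 1.44 and 1.71 CPM in NC. All OGT_KO libraries lay above the others, and TR11B_KO overlapped NC. These levels rest on 164, 250 and 150 counts in OGT_KO, 87, 30 and 61 counts in TR11B_KO, and 82, 61 and 67 counts in NC. ATP6V1A rose in OGT_KO against NC by 1.34 ± 0.31 (log2, SE; adjusted p = 0.00886) and exceeded TR11B_KO by 1.48 ± 0.31 (adjusted p = 0.0028). This rise did not pass without OGT_KO replicate 2 (1.10, adjusted p = 0.0592) or NC replicate 2 (1.23, adjusted p = 0.0521), whereas the difference between the knockouts held under all 23 alternatives.

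ATP6V1B2 had 19.8, 25.4 and 18.3 CPM in OGT_KO, 18.2, 7.58 and 14.8 CPM in TR11B_KO, and 41.15, 45.3 and 32.3 CPM in NC. All 6 knockout libraries lay below all NC libraries, with TR11B_KO replicate 2 the lowest. ATP6V1B2 fell in OGT_KO against NC by 0.90 ± 0.27 (log2, SE; adjusted p = 0.035) and by 1.55 ± 0.28 in TR11B_KO against NC (adjusted p = 0.00156). The fall in TR11B_KO held under all 23 alternatives, and without TR11B_KO replicate 2 it was 1.23. The fall in OGT_KO was lost without any single OGT_KO library, NC replicate 1 or NC replicate 2, with log2 fold changes from -1.06 to -0.80 and adjusted p from 0.0637 to 0.133, and with library totals alone or the length offset. Between the knockouts its log2 fold change was 0.64 ± 0.28 (adjusted p = 0.0872). ATP6V1B2 lies on 8p, as does CTSB, and the median of that arm was -0.00091 in TR11B_KO against NC.

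ATP6V1C1, the subunit that links the V1 head to its stalk and takes part in assembly with V0, had 4.80, 4.23 and 4.31 CPM in OGT_KO, 2.95, 3.64 and 2.945 CPM in TR11B_KO, and 1.98, 2.45 and 2.94 CPM in NC. Every OGT_KO library was above every other library. ATP6V1C1 rose in OGT_KO against NC by 0.86 ± 0.24 (log2, SE; adjusted p = 0.0231). This was lost without any single OGT_KO library, NC replicate 1 or NC replicate 2, with log2 fold changes from 0.72 to 0.89 and adjusted p from 0.0589 to 0.129. The 5 other V1 subunits (ATP6V1D, ATP6V1E1, ATP6V1F, ATP6V1G1 and ATP6V1H) and the accessory subunit ATP6AP1 passed in none of the 3 comparisons, with log2 fold changes from -0.56 to 0.68. Of these, ATP6V1H and ATP6V1E1 were lowest in TR11B_KO replicates 2 and 3, with 1.87 and 2.54 CPM for ATP6V1H, against 6.07 CPM in TR11B_KO replicate 1.

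**Figure D3:**
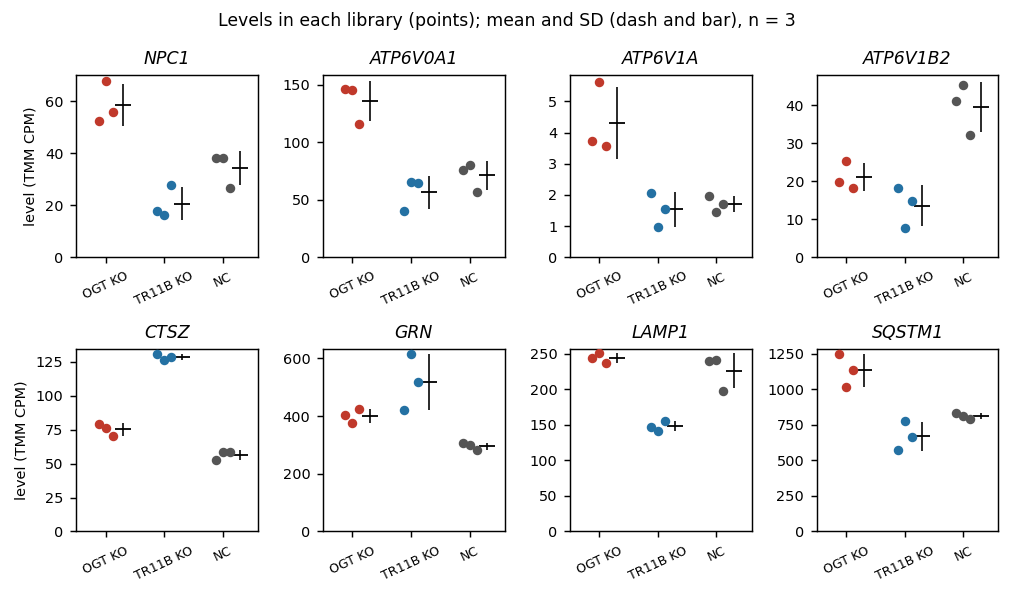
Level in TMM CPM (vertical axes, each from 0) of 8 genes in the 3 libraries of OGT_KO, TR11B_KO and NC, in that order from the left. Points are libraries, and the dash and bar beside them are the mean and SD (n = 3). OGT_KO points are the highest for NPC1, ATP6V0A1, ATP6V1A and SQSTM1, all 6 knockout points lie below NC for ATP6V1B2, and TR11B_KO points are the highest for CTSZ and the lowest for LAMP1.

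V-ATPase genes and the hydrolases with membrane proteins were then set side by side. In OGT_KO against NC, the median log2 fold change was 0.17 for the 14 V-ATPase genes and 0.13 for the 16 measured hydrolases and membrane proteins. For TR11B_KO against NC it was -0.17 for the V-ATPase genes and 0.068 for the hydrolases and membrane proteins, and for OGT_KO against TR11B_KO 0.42 and 0.0598. The V-ATPase median was lower than the other in TR11B_KO against NC by 0.24 and higher by 0.36 between the knockouts, with a difference of 0.046 in OGT_KO against NC. The 2 pooled classes differed from each other. The 5 membrane proteins alone had medians of 0.11, -0.10 and 0.69 in the 3 comparisons, and the 11 hydrolases 0.15, 0.16 and -0.063. Between the knockouts the V-ATPase median thus lay above that of the hydrolases and below that of the membrane proteins. The sign of the median of the hydrolases and membrane proteins depended on the scaling. For TR11B_KO against NC it was -0.0955 with library totals alone and -0.0213 with a GC offset, and between the knockouts it was -0.0195 with RLE size factors. The V-ATPase median in TR11B_KO against NC was -0.32 with library totals alone, -0.0604 with the GC offset and -0.11 with RLE size factors. By calls, 1 of 14 V-ATPase genes and 8 of 16 hydrolases and membrane proteins passed in TR11B_KO against NC, where 27.6% of all tested genes passed. In OGT_KO against NC these counts were 4 of 14 and 3 of 16.

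These medians were also taken in each library. The median log2 ratio to the NC mean over the V-ATPase genes was 0.25, 0.0935 and 0.22 in OGT_KO and -0.11, -0.0877 and -0.16 in TR11B_KO. Over the hydrolases and membrane proteins the values were 0.23, 0.12 and 0.19 for OGT_KO replicates and -0.0045, 0.31 and 0.0174 for TR11B_KO replicates. In TR11B_KO the 5 membrane proteins alone had -0.62, -0.45 and -0.29, and the 11 hydrolases 0.14, 0.54 and 0.11. The TR11B_KO medians of the V1 subunits ranged from -0.66 in replicate 2 to 0.22 in replicate 1, and those of the hydrolases from 0.11 in replicate 3 to 0.54 in replicate 2. TR11B_KO replicate 2 was thus the lowest library for V1 subunits and the highest for hydrolases.

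Levels per length showed a wide range among subunits of one complex. On the FPKM scale (TMM CPM per kilobase of the gene length in the deposited tables), the NC mean ran from 746 ± 30.4 (SD, n = 3) for ATP6V0C to 0.372 ± 0.0572 for ATP6V1A. ATP6V0B (409 ± 73.4) and ATP6V1F (395 ± 18.1) followed ATP6V0C and did not differ beyond their spread, and ATP6V0D1 came next at 236 ± 10.6. At the low end, ATP6V1H (2.16 ± 0.248) and ATP6V1D (2.04 ± 0.429) did not differ beyond their spread, nor did ATP6V1C1 (0.436 ± 0.0848) and ATP6V1A. Among the other genes, PSAP (358 ± 12.7), CD63 (333 ± 31.3), CTSD (263 ± 3.25) and SQSTM1 (249 ± 7.17) were the highest, and LAMP2 (0.849 ± 0.0292) the lowest. The lowest subunits had a low GC content. Across the 14 V-ATPase genes the Spearman correlation of the NC level with the GC content of the longest transcript was 0.815, across all 36 genes 0.568, and across 11729 tested genes with a GC value 0.493. These correlations are across genes of the same libraries and are a description only. The subunits ATP6V1A, ATP6V1C1 and ATP6V1B2, which passed in OGT_KO, had 40.6%, 39.7% and 40.03% GC, and ATP6V0A1 had 53.8%.

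**Figure D4:**
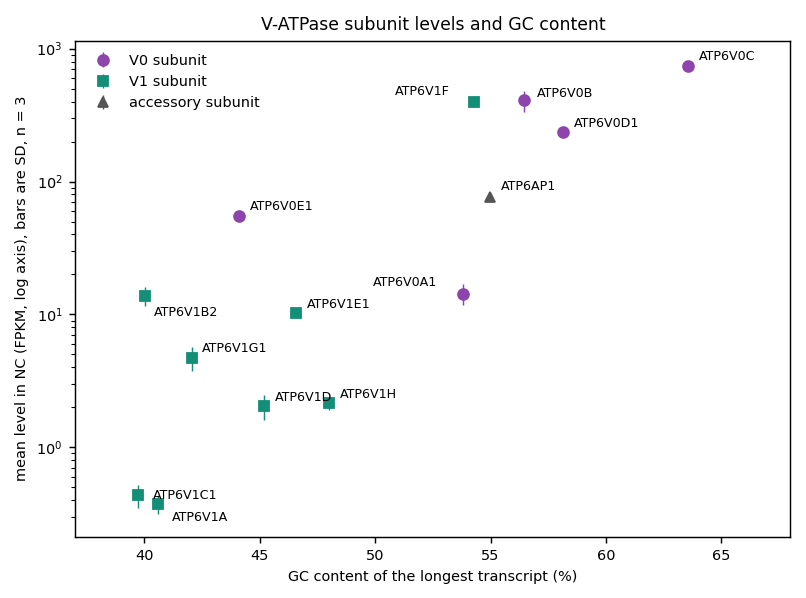
Mean level of each of the 14 V-ATPase genes in NC (FPKM, log axis, bars are SD, n = 3 libraries) against the GC content of its longest transcript in percent. V0 subunits are circles, V1 subunits squares and the accessory subunit a triangle. ATP6V1A and ATP6V1C1 lie at the lower left, below 1 FPKM, and ATP6V0C at the upper right, with 746 FPKM.

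GC content also moved with the differences between libraries, and this touches the counts above. For each of the 36 genes, the deviation of its log2 CPM from its mean over all 9 libraries was taken. The Spearman correlation of GC content with this deviation was 0.789 in TR11B_KO replicate 2, against -0.257 in replicate 1 and 0.216 in replicate 3. In OGT_KO it was -0.341, -0.581 and -0.176. The trend was not particular to these genes. Over the 11729 tested genes with a GC value the correlation was -0.143, 0.355 and 0.316 in TR11B_KO replicates 1, 2 and 3. It was -0.195, -0.442 and -0.16 over these genes in the OGT_KO replicates. TR11B_KO replicate 2 had a median log2 ratio to the NC mean of 0.44 over the 25 genes with at least 50% GC and -0.45 over the 11 with less. In TR11B_KO replicates 1 and 3 these medians were -0.29 and -0.13 for the GC-rich genes, and 0.25 and -0.0243 for the others. In OGT_KO the GC-poor genes had the higher medians, at 0.43, 0.46 and 0.24, against 0.18, 0.0089 and 0.19 for the GC-rich genes.

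With an offset for the GC trend, chosen after seeing the data, 17 of 36 genes passed in OGT_KO against NC (16 higher, 1 lower), 13 in TR11B_KO against NC (10 higher, 3 lower) and 17 between the knockouts (13 higher, 4 lower). Of all tested genes 26.3%, 33.6% and 39.5% passed with this offset. Of the calls in OGT_KO against NC, 6 of 7 were kept, and GLB1 was lost. Of those in TR11B_KO against NC, 6 of 10 were kept (CTSZ, GAA, NAGLU, CTSL, GRN and ATP6V1B2), and LAMP1, CTSB, NPC1 and GLB1 were lost. The part of GC content in each difference was otherwise not tested. Fold changes in TR11B_KO against NC also fell with gene length across the 12574 tested genes, with a Spearman correlation of -0.313, against 0.066 in OGT_KO against NC. With an offset for length, 9, 9 and 12 of the 36 genes passed in the 3 comparisons, against 18.3%, 22.5% and 28.4% of all tested genes. With both offsets 17, 15 and 21 passed, against 26.2%, 30.0% and 36.6% of all tested genes.

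**Figure D5:**
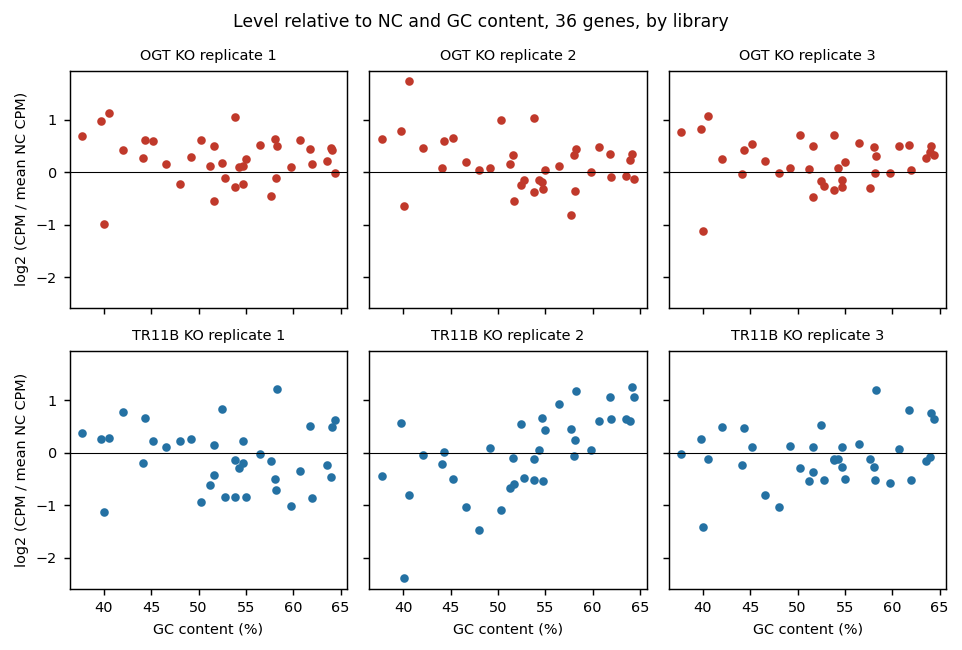
Log2 ratio of each of the 36 genes to its mean CPM in NC (vertical axes) against the GC content of its longest transcript in percent, in the 3 OGT_KO libraries (upper row, red) and the 3 TR11B_KO libraries (lower row, blue). The points rise from left to right in TR11B_KO replicate 2. With deviations from the mean over all 9 libraries in place of the plotted ratios, the Spearman correlation was 0.789 there. In the other 5 libraries that correlation lay between -0.581 and 0.216.

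Other genes of the pathway were counted in 8 lists of 145 genes, of which 129 were tested. Calls went in both directions. Of the 129, 33 passed in OGT_KO against NC (18 higher, 15 lower; 25.6%), 38 in TR11B_KO against NC (15 higher, 23 lower; 29.5%) and 47 in OGT_KO against TR11B_KO (31 higher, 16 lower; 36.4%). Of all tested genes 18.3%, 27.6% and 33.2% passed in these comparisons, and the counts of the single lists are to be read against the same shares. Without TR11B_KO replicate 2 54 passed in OGT_KO against NC, and 14 to 21 passed there without any single OGT_KO or NC library. In TR11B_KO against NC, leaving out NC replicate 1 gave 17 calls and leaving out NC replicate 2 gave 19. Between the knockouts, leaving out OGT_KO replicate 2 gave 24. With library totals alone the calls split into 21 higher and 7 lower, 9 and 28, and 44 and 11 in the 3 comparisons. Under all 23 alternatives, 9 of the 33, 12 of the 38 and 17 of the 47 calls held.

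Of the 6 tested V-ATPase subunit genes outside the set, 4 passed in OGT_KO against NC, 1 in TR11B_KO against NC and 5 between the knockouts, against 18.3%, 27.6% and 33.2% of all tested genes. ATP6V0E2, a second isoform of the V0 e subunit, had 379, 341 and 360.3 CPM in OGT_KO, 157, 188 and 177 CPM in TR11B_KO, and 171, 175 and 154 CPM in NC. It rose in OGT_KO against NC by 1.11 ± 0.16 (log2, SE; adjusted p = 0.000398), and the call held under all 23 alternatives. ATP6V0A2, another isoform of the V0 a subunit, fell in OGT_KO by 0.98 ± 0.24 (adjusted p = 0.0112), whereas ATP6V0A1 rose there. The fall was lost without OGT_KO replicate 1 or replicate 3, with log2 fold changes from -0.99 to -0.92 and adjusted p up to 0.0586, and with library totals alone. In TR11B_KO, ATP6V0A4 fell by 2.07 ± 0.50 (adjusted p = 0.00768), from a level at or below 2.10 CPM in every library. Of 10 V-ATPase assembly genes, WDR7 and DMXL1, which encode parts of the rabconnectin complex, rose in OGT_KO by 0.94 ± 0.30 and 1.12 ± 0.37, and TMEM9 rose in TR11B_KO by 0.75 ± 0.18. The call of WDR7 was lost without any single OGT_KO or NC library or TR11B_KO replicate 3 (log2 fold changes from 0.72 to 1.10, adjusted p up to 0.195). That of DMXL1 was lost without any single OGT_KO library, TR11B_KO replicate 3, NC replicate 1 or NC replicate 2 (0.87 to 1.23, adjusted p up to 0.186). The DMXL1 call was also lost with RLE size factors and with the length or GC offset. Levels were low, at or below 3.602 CPM for WDR7 and 3.062 CPM for DMXL1 in every library. WDR7 lies on 18q, as does NPC1, and the part of that arm's median (0.42 in OGT_KO against NC) was not tested.

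Among 32 other tested hydrolases, 9 passed in OGT_KO against NC (3 higher, 6 lower), 10 in TR11B_KO against NC (5 higher, 5 lower) and 14 between the knockouts (6 higher, 8 lower). The cathepsin CTSH had 0.842, 0.405 and 0.547 CPM in OGT_KO, 6.97, 8.22 and 7.33 CPM in TR11B_KO, and 2.96, 3.88 and 3.50 CPM in NC. The 3 groups did not overlap. CTSH fell in OGT_KO against NC by 2.52 ± 0.29 (log2, SE; adjusted p = 7.74e-05) and rose in TR11B_KO against NC by 1.12 ± 0.26 (adjusted p = 0.00598), and both calls held under all 23 alternatives. CTSC, which activates serine proteases, fell in OGT_KO by 1.08 ± 0.20 (adjusted p = 0.0027), and SIAE, a sialate esterase, rose there by 1.86 ± 0.32 (adjusted p = 0.0014). In TR11B_KO the lysosomal nuclease DNASE2 rose by 0.90 ± 0.15 (adjusted p = 0.00113) and the protease LGMN fell by 1.01 ± 0.22 (adjusted p = 0.00398). Of 20 other membrane proteins, the cation channel TPCN1 rose in OGT_KO by 0.97 ± 0.21 (adjusted p = 0.00616) and fell in TR11B_KO by 0.85 ± 0.21 (adjusted p = 0.00868), with a difference between the knockouts of 1.82 ± 0.21 (adjusted p = 3.96e-05). The fall in TR11B_KO was lost with the length offset, and the alternatives ran up to -0.49.

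A further list held genes of sorting to lysosomes, including the route through mannose 6-phosphate tags and the AP-3 adaptor. Of 16, 2 were higher and 4 lower in OGT_KO, and 1 higher and 6 lower in TR11B_KO. GGA2, an adaptor that binds the mannose 6-phosphate receptors, had 33.6, 34.7 and 30.4 CPM in OGT_KO, 32.3, 21.9 and 32.2 CPM in TR11B_KO, and 93.5, 93.3 and 70.0 CPM in NC. Its fold changes were -1.38 ± 0.20 in OGT_KO (log2, SE; adjusted p = 0.000438) and -1.57 ± 0.20 in TR11B_KO (adjusted p = 0.000204), and both calls held under all 23 alternatives. In TR11B_KO the AP-3 adaptor subunits AP3B1 and AP3D1 fell by 1.37 and 1.05.

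Of 21 genes that dock mTORC1 to lysosomes or control it there, 4 passed in OGT_KO against NC (3 higher, 1 lower) and 8 in TR11B_KO against NC (4 higher, 4 lower). RRAGD, a Rag GTPase, rose in OGT_KO by 1.96 ± 0.45 (log2, SE; adjusted p = 0.00866), from low levels of at most 3.16 CPM in any library. LAMTOR2, a part of the Ragulator scaffold, rose in TR11B_KO by 1.22 ± 0.17 (adjusted p = 0.000415; at least 0.55 under the alternatives), and MTOR fell there by 1.38 ± 0.30 (adjusted p = 0.00465). MITF, another factor of the TFEB family, rose in OGT_KO by 1.16 ± 0.31 (adjusted p = 0.0195), which was lost without OGT_KO replicate 1 or 3 or any single NC library (0.98 to 1.20, adjusted p up to 0.0994). Of 23 autophagy genes, 4 passed in OGT_KO against NC (1 higher, 3 lower) and 6 in TR11B_KO against NC (2 higher, 4 lower). MAP1LC3A, an LC3 gene, rose in OGT_KO by 0.99 ± 0.22 (adjusted p = 0.00665), and the cargo receptor TAX1BP1 fell in TR11B_KO by 1.48 ± 0.27 (adjusted p = 0.00163). ATG16L1, which places LC3 on membranes, had log2 fold changes of -0.81 ± 0.18 in OGT_KO (adjusted p = 0.0069) and -0.78 ± 0.18 in TR11B_KO (adjusted p = 0.00568).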

How the data were processed

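The submitters' processing notes name DESeq2, HTSeq, HISAT, fastp and R 3.2.0, and the GRCh38 build, with no role or order. The authors deposited raw counts per gene, whole numbers with no normalization, and FPKM values for the same genes, scaled by the authors to length and library total. Gene lengths were computed from both deposited tables. Groups came from the sample titles.

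Counts were fitted with edgeR 4.0.16 in R 4.3.3 (filterByExpr, TMM, robust quasi-likelihood F test, 1 mean per group, all 9 libraries), with Benjamini-Hochberg adjustment over 12574 genes and calls under 0.05. SE was the absolute log2 fold change over the square root of F. The steps were tested on simulated data. Alternatives were DESeq2 1.42.0, RLE factors, library totals, other filters, fits of only the groups compared, a replicate block, each library left out, a length offset, and limma 3.58.1 on log2(FPKM + 1) and log2(FPKM + 0.1). A GC offset, alone or with the length offset, was added after seeing the data. Lists of the alternatives under which a call was lost are not complete unless this is said. Losses with the replicate block or limma are mostly left out of them.

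Values in every library are given for TFEB, TFE3 and up to 8 called genes per comparison, and from each pathway list up to 3 called genes with the smallest adjusted p. The genes, lists and tests were chosen with earlier results of these data known. Positions and promoters are from RefSeq GRCh38.p14. GC content is that of the longest GENCODE transcript, found for 93.28% of tested genes. Whether strand was kept is not given in the sources used here. Of the 36 genes, 13 overlap a gene on the opposite strand, and 7 have named pseudogenes. Their values are uncertain where reads are shared. One marker result is not reported here.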

Additional observations from a re-analysis of the deposited data

How the results depend on the processing

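The number of genes called in OGT_KO against NC (7) was 20 with only the 2 groups compared (41.8% of all tested genes, given in brackets below). It was 2 with the replicate block (12.8%), 11 with limma on log2(FPKM + 1) (20.2%) and 17 with the GC offset (26.3%). With the length and GC offsets it was also 17 (26.2%), and it ran from 1 to 19 with 1 library left out (8.34% to 35.4%). In TR11B_KO against NC (10) it was 6 with only the 2 groups compared (18.7%), and from 4 to 17 with 1 library left out (14.1% to 34.8%). In OGT_KO against TR11B_KO (9) it was 19 with library totals alone, 19 with limma on log2(FPKM + 1), 20 with log2(FPKM + 0.1), 18 with log2(FPKM + 1) and no filter, 17 with the GC offset and 21 with both offsets, and from 6 to 17 with 1 library left out. With limma on log2(FPKM + 0.1), 3 of the 7, 9 of the 10 and 8 of the 9 calls were kept. Fits without a library have fewer samples, and the cause of these changes was not tested.

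The V-ATPase median minus the median of hydrolases and membrane proteins in OGT_KO against NC (0.046) was -0.0213 with the length offset, -0.0119 with the length offset and replicate block, 0.0026 with the GC offset and -0.0428 with both. In TR11B_KO against NC (-0.24) it was -0.36 with the length offset, -0.36 with the length offset and replicate block, and -0.0391 with the GC offset. Between the knockouts (0.36) it was 0.18 with limma on log2(FPKM + 1), with and without a filter.

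TFE3 in OGT_KO against NC changed sign without OGT_KO replicate 1 (-0.0029) and without NC replicate 3 (-0.0638), and ran up to 0.10 with 1 library left out. TFEB in TR11B_KO against NC changed sign with library totals alone (-0.0915), without TR11B_KO replicate 2 (-0.11, against up to 0.25 with another library left out), and with limma on log2(FPKM + 1) (-0.0756, and -0.0756 with no filter) and log2(FPKM + 0.1) (-0.0936). Neither passed there or in the fit of all libraries, and the cause was not tested.

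Libraries of different groups that share a replicate number did not deviate together, with correlations from -0.199 to 0.0687, so the numbers were not used as pairs. With the replicate block, 2, 8 and 9 genes were called in the 3 comparisons, against 12.8%, 20.8% and 27.1% of all tested genes. With the length offset and replicate block, CTSZ between the knockouts (-0.47, adjusted p = 0.0766 in edgeR's test) and LAMTOR2 in TR11B_KO against NC (adjusted p = 0.0671) did not pass, nor did TPCN1 in TR11B_KO against NC. The low counts of ATP6V1A, at most 250 in a library, limit its precision.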
